A study of Arabidopsis thaliana with 42 samples.

Results

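The plastid-encoded genes of Arabidopsis thaliana seedlings of the accession Col-0 are described here across their functional classes. The members are all features whose identifier starts with ATCG, 133 of the 28691 genes listed for 4 Col-0 libraries. These libraries are labelled technical replicates 1 to 4 of whole seedlings about 11 days old, raised on soil in long days (16 h light, 8 h dark) at 20 C once the seed had been stratified for 5 days at 4 C. All 4 came from lane 7 of run 35 and held polyA RNA, so they form 1 group, and their spread measures technical error alone. The series holds another 38 libraries, 2 for each of 19 natural accessions, and in all 38 the 133 plastid features carry the code -1, read here as no value. No comparison between conditions was therefore possible, and the values below are levels with no test. Depth was 4367579 to 4585269 mapped reads per library. The level is RPKM, reads counted on the exon model of a gene, divided by its kilobases and by units of 1000000 mapped reads, and errors are SDs over the 4 libraries (n = 4).

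Plastids keep a small circular genome, a remnant of that of the cyanobacterium from which they descend. It encodes core subunits of both photosystems, the cytochrome b6f complex, the ATP synthase, the NDH complex (a plastid relative of respiratory complex I) and the large subunit of Rubisco, the enzyme that fixes carbon dioxide, beside ribosomal proteins, RNA polymerase subunits, tRNAs and rRNAs. The other subunits of the same complexes are made from nuclear genes and imported. Plastid genes lie mostly in clusters that are transcribed together, by a bacterial-type polymerase whose core is plastid-encoded and by phage-type polymerases encoded in the nucleus. Stable plastid transcripts generally carry no polyA tail, and tails added in the plastid mark RNA for degradation. The levels below are thus those of plastid RNA that passed a polyA selection, and its part in the differences between genes was not tested. In whole seedlings, fewer green cells and less plastid RNA per cell cannot be told apart.

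The files list identifiers without gene names. Because each value is a whole number of reads divided by length and depth, the depth of each library and the exon length behind each feature were recovered from the values, and 76 of the 79 features with reads were paired with a plastid locus of the RefSeq annotation (TAIR10.1) of exactly that length. The probability that a given length gives whole reads in all 4 libraries by chance was at most 0.00427, under the limit of 0.005 set for accepting a length. Its median was 3.1e-07. It does not count the many lengths tried, and the depths had been refined on these same features. It is therefore not the probability of a wrong pair. Only 41 of the 76 features fitted a single locus by all of its exons, and fits to parts of a locus were tried but not counted. Among the 41, ATCG00360, ATCG00905 and ATCG01230 were paired with exons 2 to 3 of a locus, and so not by the fit counted. Features with more than 1 fit were settled because identifiers and positions then ran in the same order, with 1 feature, the first exon of rps12, paired by elimination. For 6 of the identifiers the annotation's notes name the gene or its protein: 5 of these are the gene paired by length, and for ATCG00430, paired with ndhK, the note gives protein G of photosystem II, an older name of that gene. The paired lengths are coding lengths, so reads from untranslated ends and spacers are not part of these values. The shortest is petN at 90 bases and the longest is ycf1 at 5361 bases.

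Short genes show how far levels differ between sequences of like size, and 6 are printed from the RefSeq plastid genome, 5′ to 3′ in the coding sense. They were chosen with their values known: psbM, rpl32 and psaJ are the highest of the features of up to 159 bases, and petN, petL and petG are the small subunit genes of the cytochrome b6f complex. The first of the longest runs of A is in capitals, a feature that is set beside the levels of all paired genes at the end. The psbM gene lies at positions 28707-28811 on the minus strand, rpl32 at 113449-113607, psaJ at 66929-67063, petN at 28089-28178, petL at 65712-65807 and petG at 65998-66111, the last 5 on the plus strand.
psbM: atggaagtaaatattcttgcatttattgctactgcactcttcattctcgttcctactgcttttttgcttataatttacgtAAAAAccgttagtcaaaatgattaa
rpl32: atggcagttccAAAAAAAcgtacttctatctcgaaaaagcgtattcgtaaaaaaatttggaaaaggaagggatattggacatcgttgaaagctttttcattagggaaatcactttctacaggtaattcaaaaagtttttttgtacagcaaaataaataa
psaJ: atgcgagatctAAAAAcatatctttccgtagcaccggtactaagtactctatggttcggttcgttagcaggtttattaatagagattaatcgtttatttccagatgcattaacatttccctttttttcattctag
petN: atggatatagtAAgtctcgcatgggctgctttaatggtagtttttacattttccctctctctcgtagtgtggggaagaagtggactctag
petL: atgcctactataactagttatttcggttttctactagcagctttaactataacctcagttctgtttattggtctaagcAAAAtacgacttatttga
petG: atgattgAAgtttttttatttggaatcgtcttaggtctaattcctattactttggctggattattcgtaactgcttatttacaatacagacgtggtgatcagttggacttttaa
The mean levels of psbM, rpl32 and psaJ were 7249.7, 5756 and 1551 RPKM, against 173 RPKM for petN, 46.5 RPKM for petL and 21.2 RPKM for petG. The other 9 features of up to 159 bases lay from 57.8 RPKM (psaI) to 368 RPKM (psbI).

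The 76 paired features took 3.60% of mapped reads in replicate 1, 3.68% in replicate 2, 3.63% in replicate 3 and 3.88% in replicate 4. Their exact 95% binomial intervals, which cover counting error only, put replicate 4 (3.86% to 3.89%) above the other 3, whose highest upper bound was 3.69%. By summed RPKM, where short genes weigh as much as long ones, the 133 plastid features held 7.76%, 7.83%, 7.84% and 8.65% of replicates 1 to 4, the mitochondrial genes 0.102% to 0.106% and the nuclear genes 91.2% to 92.1%. Replicate 4 was again the highest. Green tissue was well represented among nuclear transcripts, with RBCS1A, a Rubisco small subunit, at a mean of 16828 RPKM and the light-harvesting gene CAB1 at 12172 RPKM. Of the root markers, PYK10 stood at 101 RPKM, while the root hair gene EXPA7 was listed at 0 in all 4 libraries and SHV2 in 3 of 4. The seed storage genes CRU3 and CRA1 were listed at 0 in 4 and 3 of the 4, and the floral genes AP3 and PI averaged 0.595 and 1.33 RPKM.

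Of the 133 members, 79 had reads in every library and 54 were listed at 0 in every library. A count of 0 reads allows up to 0.654 to 0.687 RPKM for a feature of 1000 bases, taking 3 reads as the limit. No length, and so no name, could be given to a feature at 0. On the annotation's side, 37 tRNA loci, 7 rRNA loci and 10 protein-coding loci had no partner of their length among the features with reads. The coding ones were matK, a splicing factor, ndhD, and both copies of rpl23, rps7, ndhB and ycf2. The features ATCG01050, ATCG00890 and ATCG01250 had reads but no locus of their length, at 32.8 ± 4.06, 1.72 ± 0.396 and 1.53 ± 0.189 RPKM. By identifier, ATCG01050 falls between ccsA and psaC, where ndhD is the only coding locus without a partner. Its recovered length was 1521 bases, against 1503 for ndhD, so they were not paired, and ndhD cannot be said to lack reads. Among the 79, 78 reached 1 RPKM in all 4 libraries, and the exception was the short ycf1 copy. Their median was 136 RPKM, against 11.0 RPKM for the 16183 nuclear genes with at least 1 RPKM in all 4. When the 3 unnamed features were taken as 3 of the 10 coding loci without a partner and the other 7 were counted at 0, the plastid median lay 3.31 ± 0.07 above the nuclear median on the log2(RPKM + 1) scale.

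Levels ranged from 12161 RPKM for atpE to 0.7 RPKM for the short ycf1 copy. The atpE gene encodes the epsilon subunit of the ATP synthase, the part of the rotor that restrains the enzyme, and had 12144, 11697, 11772 and 13031 RPKM in replicates 1 to 4. Its neighbour atpB, for the catalytic beta subunit, had 6811, 7048, 6872 and 7099.6 RPKM. The atpE values lay above all atpB values, by 0.80 ± 0.06 on the log2 scale, and 2 nuclear genes had a higher mean than atpE, RBCS1A and, by less than the SD, CAB1. Together atpB and atpE held 40.8% to 41.8% of plastid reads per library. The reading frames overlap by 4 bases, in capitals in the strand of the genes (minus, positions 52630-52693), so few reads can belong to both.
atpB end and atpE start: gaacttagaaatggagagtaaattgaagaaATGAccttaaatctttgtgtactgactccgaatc

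The psbM gene, for a small subunit at the dimer interface of photosystem II, had 6294, 6505, 7496 and 8705 RPKM. Replicate 4 was the highest and replicate 1 the lowest, and the range was wide for a gene with 13648 reads. The gene rpl32, for a protein of the large ribosomal subunit, had 5278, 5549.8, 5668 and 6526 RPKM, also highest in replicate 4. The next in order were rpl16 at 2802 ± 123 RPKM, psbA at 2561 ± 78.4, rps19 at 1787 ± 108, rpl14 at 1739 ± 32.5, ndhK at 1637 ± 79.5 and psbD at 1581 ± 42.1 RPKM. Of these neighbours in the order, rps19 and rpl14, rpl14 and ndhK, and ndhK and psbD differed by less than the sum of their SDs. The order of psbM and atpB was not fixed either, since psbM lay below atpB in replicates 1 and 2 and above it in replicates 3 and 4. The 10 highest genes held 66.5% to 67.2% of plastid reads, 16 members passed a mean of 1000 RPKM and 47 passed 100 RPKM.

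**Figure D1:**
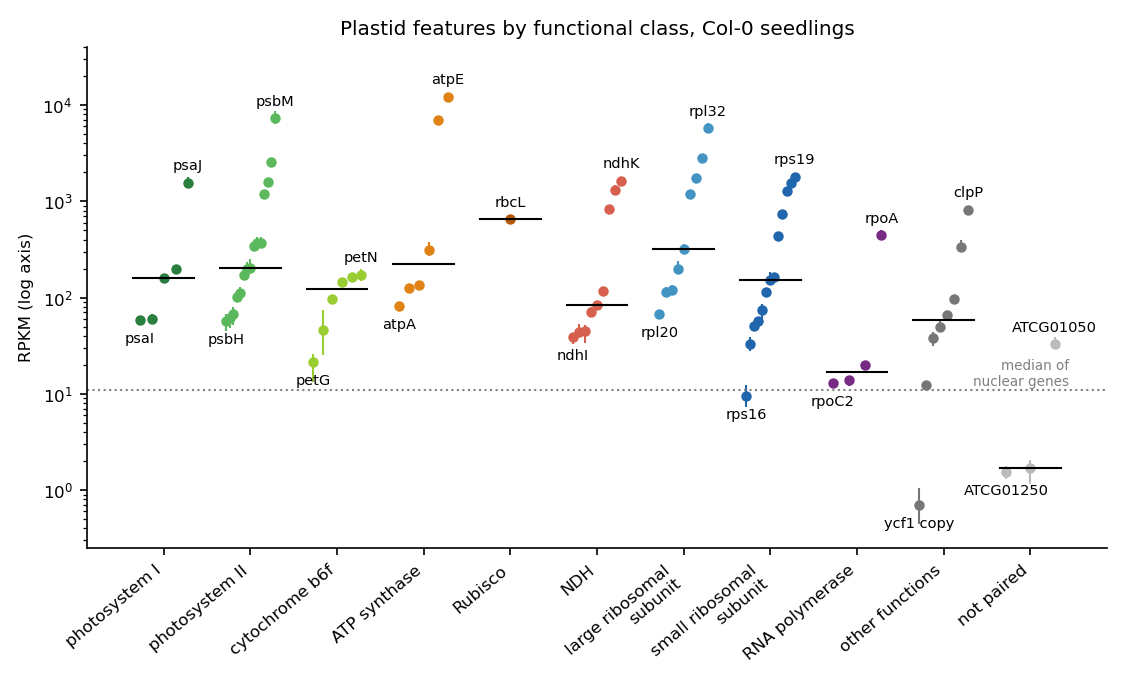
Mean RPKM (log axis) of each plastid feature with reads, by functional class, with a vertical line over the range of the 4 libraries and a black bar at the class median; the dotted line is the median of nuclear genes with at least 1 RPKM in all 4. In most classes a few genes stand far above the median, as psbM and atpE do, and the RNA polymerase subunits other than rpoA lie near the nuclear median of 11.0 RPKM.

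Photosystem II, which splits water, had 15 members from 7249.7 RPKM (psbM) to 56.8 ± 9.12 RPKM (psbH), with a median of 203 RPKM. The reaction centre proteins D1 and D2 come from psbA and psbD. The psbA gene had 2459, 2644, 2548 and 2592 RPKM, and psbD had 1540.1, 1639, 1566 and 1579 RPKM. Every psbA value lay above every psbD value. The core antenna proteins CP43 and CP47 come from psbC, at 1126, 1226, 1184 and 1221 RPKM, and psbB, at 169, 161, 176 and 182 RPKM. Although both antennae are part of each complex, psbC was far above psbB in every library. The psbC and psbD frames overlap by 53 bases, in capitals below (plus strand, positions 33690-33802), and the sources used here do not say how reads from the overlap were counted.
psbD end and psbC start: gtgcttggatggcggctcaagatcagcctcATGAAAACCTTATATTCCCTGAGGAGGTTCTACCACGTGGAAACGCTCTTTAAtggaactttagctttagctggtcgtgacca
The small subunit genes psbK, psbI and psbZ had 371 ± 43.0, 368 ± 41.4 and 344 ± 31.2 RPKM. The cytochrome b559 gene psbE had 193, 179.9, 186 and 253 RPKM, and psbF, for the other chain of that cytochrome, had 98.9, 95.4, 101 and 113 RPKM. Their ranges did not overlap. The genes psbJ at 113 ± 16.0, psbL at 62.1 ± 9.75 and psbT at 66.7 ± 11.6 RPKM rested on 122 to 247 reads each over the 4 libraries.

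Photosystem I had 5 members with a median of 159.7 RPKM. Its highest was psaJ, a small subunit, with 1487, 1443, 1479 and 1793 RPKM, of which replicate 4 stood apart. The genes of the large reaction centre proteins were close to each other, with 191, 199, 190.1 and 204 RPKM for psaB and 167, 161, 154 and 157 RPKM for psaA. The ranges did not overlap, and psaB was higher by 0.29 ± 0.08 on the log2 scale. The lowest were psaC, which binds the terminal iron-sulfur clusters, at 60.3 ± 6.29 RPKM and psaI at 57.8 ± 4.53 RPKM, which overlapped.

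The cytochrome b6f complex, which passes electrons between the photosystems, had 6 members in a narrow band. Cytochrome b6 (petB) was at 162 ± 10.2 RPKM, subunit IV (petD) at 146 ± 5.37 and cytochrome f (petA) at 97.5 ± 4.6 RPKM. The highest of the class was petN, at 173 ± 20.3 RPKM. The small petL gene had 54.7, 31.0, 25.2 and 75.0 RPKM from 80 reads in all, and petG had 26.0, 24.1, 21.2 and 13.4 RPKM from 43 reads. The coefficient of variation of petL, 49.3%, was the highest of the members with a mean of at least 10 RPKM.

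The ATP synthase had 6 members split into distant levels. Against the values of atpE and atpB above, atpH, for the ring of c subunits, had 314, 268, 295 and 377 RPKM, atpF had 142, 137, 126 and 138 RPKM and atpI had 126, 119.7, 119 and 135 RPKM. The gene of the alpha subunit, atpA, had 83.1, 79.2, 78.8 and 87.3 RPKM. The alpha and beta subunits are equal in number in the enzyme, yet atpE and atpB lay far above atpA in every library, atpE by 7.21 ± 0.01 on the log2 scale. The Rubisco large subunit gene rbcL, next to atpB on the genome, had 633, 704, 668 and 601 RPKM. Its mean of 652 ± 44.3 RPKM was below that of atpB by 3.42 ± 0.10 on the log2 scale and below that of psbA by 1.98 ± 0.09.

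The NDH complex, which carries electrons around photosystem I, fell into a high and a low group of genes. The neighbours ndhK, ndhJ and ndhC had 1637 ± 79.5, 1303 ± 114 and 826 ± 24.8 RPKM. The genes of the ndhH cluster were at 83.1 ± 7.12 RPKM (ndhH), 71.0 ± 7.40 (ndhA), 45.4 ± 8.20 (ndhG), 44.0 ± 5.94 (ndhE) and 38.8 ± 4.09 RPKM (ndhI). The ndhF gene, which stands alone, had 118 ± 6.88 RPKM. Between the groups, ndhK exceeded ndhH by 4.30 ± 0.10 on the log2 scale. The ndhB and ndhD loci have no paired feature and are not part of these groups.

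Among ribosomal protein genes, 9 features of the large subunit had a median of 316 RPKM and 13 of the small subunit a median of 153 RPKM. For the large subunit, rpl32 at 5756 ± 539 RPKM was the highest and rpl20 at 68.1 ± 6.89 the lowest, with rpl22 at 1189 ± 53.9, rpl36 at 316 ± 36.9 and rpl33 at 196 ± 30.8 RPKM between them. For the small subunit, rps19 at 1787 ± 108 RPKM was the highest, followed by rps14 at 1534 ± 111 and rps3 at 1281 ± 77.7 RPKM. The lowest was rps16, with 7.61, 12.4, 7.33 and 10.9 RPKM from 41 reads. The rps12 gene is trans-spliced, and its first exon, encoded apart, had 74.5 ± 10.9 RPKM, against 56.8 ± 4.46 and 51.2 ± 3.85 RPKM for the 2 copies of its other exons.

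The plastid-encoded RNA polymerase showed an uneven set of subunits. The alpha subunit gene rpoA had 420.4, 432, 427 and 502 RPKM, while rpoB had 20.6, 21.1, 17.5 and 19.9, rpoC1 had 14.1, 12.1, 15 and 14.8, and rpoC2 had 12.4, 13.6, 12.8 and 13.3 RPKM. The rpoA level exceeded that of rpoB by 4.49 ± 0.16, of rpoC1 by 4.99 ± 0.15 and of rpoC2 by 5.09 ± 0.11 on the log2 scale. The rpl36 gene of the same cluster was near it, at 316 ± 36.9 RPKM. In tobacco, rpoB, rpoC1, rpoC2, accD and ycf2 are read mainly by the nuclear-encoded polymerase. The first 3 and accD, the plastid subunit of acetyl-CoA carboxylase, at 13.7, 11.1, 11.7 and 12.5 RPKM, were 4 of the 5 lowest named genes if the short ycf1 copy is set aside, the other being rps16. No feature with reads had the length of ycf2. The part of the polymerase used in these levels was not tested. The nuclear gene of the plastid phage-type polymerase, SCA3 (AT2G24120), had 11.5 ± 0.750 RPKM, and AT5G15700, for a polymerase shared by plastids and mitochondria, had 2.25 ± 0.446 RPKM. The 6 sigma factor genes, whose products direct the bacterial-type polymerase to promoters, ranged from 34.4 RPKM (SIGC) to 96.1 RPKM (SIGA).

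Genes of other functions ranged widely. The clpP gene, for a subunit of the Clp protease, had 768, 846, 815 and 825 RPKM and exceeded accD by 6.06 ± 0.19 on the log2 scale. The full-length ycf1, for a protein of the import apparatus, had 312, 305, 324 and 392 RPKM from 32011 reads. The cemA gene of the envelope membrane had 97.7 ± 6.26 RPKM. The photosystem I assembly factors ycf3 and ycf4 had 65.9 ± 3.10 and 38.2 ± 5.39 RPKM, the feature for ycf3 covering exons 2 and 3 of the locus, and ccsA, needed to attach haem to cytochromes, had 49.9 ± 6.39 RPKM.

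Along the plastid genome, high genes lay side by side. In the stretch from ndhJ through ndhK, ndhC, atpE and atpB to rbcL, the 6 means ran from 652 RPKM for rbcL to 12161 RPKM for atpE, while the next gene, accD, averaged 12.2 RPKM. In the ribosomal cluster, levels were 120.95 RPKM for the first rpl2 copy, then 1787 (rps19), 1189 (rpl22), 1281 (rps3), 2802 (rpl16), 1739 (rpl14), 316 (rpl36) and 446 RPKM (rpoA). The level thus peaked at rpl16 in the middle of the cluster, which exceeded rpl36 by 3.15 ± 0.17 on the log2 scale, and rps19 exceeded rpl2, its neighbour upstream, by 3.89 ± 0.08.

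Genes known to be transcribed together still differed in level. In psaA-psaB-rps14 the last gene exceeded psaB by 2.97 ± 0.11 on the log2 scale, 9.61-fold above psaA. In psbD-psbC-psbZ the order of levels was that of the genes, and psbD exceeded psbZ by 2.20 ± 0.12. In rps2-atpI-atpH-atpF-atpA the highest was atpH, 9.54-fold above rps2, which had 32.9 ± 5.78 RPKM. The psbB-psbT-psbH-petB-petD cluster spanned 3.03-fold, with psbB highest and psbH lowest, and psbN, which lies within it on the other strand, had 199 ± 29.4 RPKM. The sources used here do not say whether strand was used in counting, so reads from psbN and from the transcript opposite to it cannot be told apart. The psbE-psbF-psbL-psbJ cluster spanned 3.27-fold, psaI-ycf4-cemA-petA 2.56-fold, and rpoB-rpoC1-rpoC2 1.52-fold. For pairs of short genes with few reads, such as psbE over psbL (1.71 ± 0.35), the SD was a larger part of the difference.

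**Figure D2:**
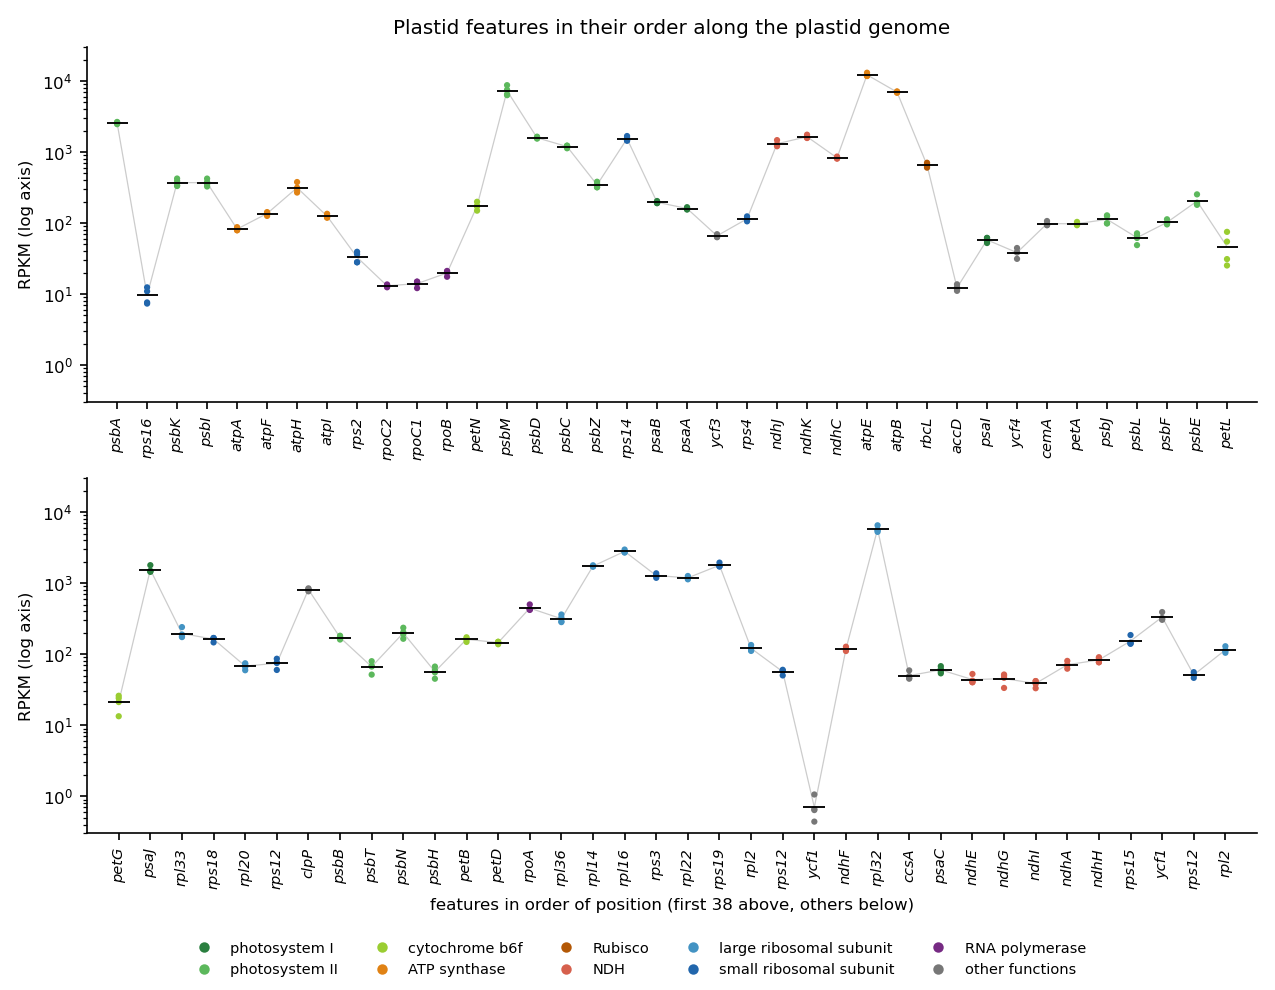
RPKM (log axis) of 74 paired features in their order along the plastid genome, with a point for each of the 4 libraries, a black bar at the mean and colours for the functional class. High levels run over neighbouring genes from ndhJ to rbcL and from rpl14 to rps19, and single high genes such as psbM, psaJ and rpl32 stand above both of their neighbours.

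Class medians ran from 16.9 RPKM for the 4 RNA polymerase subunits to 316 RPKM for the large ribosomal subunit, with rbcL, a class of 1 gene, at 652 RPKM. Pooled more broadly, the 33 genes of photosynthesis (photosystems, cytochrome b6f, ATP synthase and rbcL) had a median of 172 RPKM, and the 26 features of gene expression (ribosomal proteins and polymerase) a median of 158 RPKM. With the copies of rpl23 and rps7 counted at 0, the difference of medians was 0.53 ± 0.08 on the log2(RPKM + 1) scale. It turned to -0.52 ± 0.11 when members with sequence elsewhere, namely the copies of rpl2, rps12, rpl23 and rps7, were left out, and it was 1.38 as a difference of mean log2 values. The direction of this pooled difference was therefore not settled, and levels within a class spanned 148-fold in the ATP synthase and 128-fold in photosystem II. Of the 79 features with reads, all 33 photosynthesis genes, all 26 gene expression features, all 9 paired NDH genes and 7 of 8 others reached 1 RPKM in all 4 libraries.

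Genes of the inverted repeat are present in 2 copies, and their values depend on how reads with 2 matches were treated, which was not given. The rpl2 copies had 115, 111, 123 and 135 RPKM (ATCG00830) and 105, 112, 114 and 129.5 RPKM (ATCG01310), with 1787 and 1700 reads. The rps12 copies had 262 and 236 reads. Of the 32-base words in the joined exons, 96.2% for rpl2 and 88.5% for rps12 occur at another place in the plastid genome, so levels of the copies are uncertain. Words across the joint between exons are included and need not occur in the genome. These shares can therefore be too low for the exons themselves. Both genes have an intron within the repeat. The other coding genes there that were not paired, ndhB with an intron and rpl23, rps7 and ycf2 without one, had no feature with reads of their length. By identifier, ATCG00890 and ATCG01250 fall in the repeat, between the features of rpl2 and rps12, and had reads but no recovered length. All other features listed there were at 0. If identifiers follow position there too, a single gene at most in each copy can hold these reads, and the others were listed at 0. Which gene that is was not settled. The short copy of ycf1, with 99.8% of its words elsewhere in the plastid genome, had 0.660, 0.440, 0.640 and 1.06 RPKM from 13 reads, against 305 to 392 RPKM for the full gene that holds the same sequence. Outside these 5 features no member shared as much as 50% of its words, and 45 of the 76 shared none with any other place in the plastid, mitochondrial or nuclear genome.

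Plastid-encoded subunits were set beside the nuclear subunits of the same complexes. The plastid genes were taken by symbol, so those of photosystem II include psbN, whose place among the subunits was not checked. In photosystem II, the median of 15 plastid genes was 203 RPKM, against 2929.7 RPKM for 10 nuclear genes such as PSBO1 and PSBR. The difference was -3.74 ± 0.23 on the log2(RPKM + 1) scale, and 11 of the 15 plastid genes were below every nuclear one. Without the plastid genes under 300 bases, which are mostly the low ones, the difference was -1.09 ± 0.07. In photosystem I, 5 plastid genes had a median of 159.7 RPKM and 12 nuclear genes 2849 RPKM, a difference of -4.15 ± 0.11. For cytochrome b6f the medians were 122 RPKM over 6 plastid genes and 1183 RPKM over PETC and AT2G26500, a difference of -3.29 ± 0.09, with all 6 below both.

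In the ATP synthase and the NDH complex, plastid genes lay on both sides of the nuclear ones. In the ATP synthase, atpE and atpB lay above and the other 4 plastid genes below all 3 nuclear genes, which ran from 949 RPKM (ATPD) to 1229.6 RPKM (ATPC1). The difference of medians was -2.34 ± 0.07. In NDH, where ndhB and ndhD had no paired feature, ndhK, ndhJ and ndhC exceeded all 4 nuclear genes used here, NdhL, NdhM, NdhN and NdhO. Of the other 6, 5 were below all 4 nuclear genes, and the difference of medians was -0.81 ± 0.09. Summed over the subunits used, the sign was the opposite in both, 2.62 ± 0.02 in the ATP synthase and 2.53 ± 0.07 in NDH. Such a sum depends on the genes entered, 9 plastid and 4 nuclear in NDH, and the nuclear list need not be complete. The clpP gene, at 814 ± 32.9 RPKM, was above all 8 nuclear Clp genes, whose highest was CLPP4 at 245 RPKM. The rbcL gene, at 652 ± 44.3 RPKM, was below all 4 small subunit genes, from RBCS1B at 1301 RPKM to RBCS1A at 16828 RPKM. The accD gene, at 12.2 ± 1.13 RPKM, was near BCCP2 at 12.6 ± 1.11 RPKM, which it overlapped, and below CAC1, CAC2 and CAC3, at 57.1 to 87.1 RPKM. Exon models of nuclear genes include untranslated parts and theirs are polyadenylated transcripts, so these are differences in this library type.

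**Figure D3:**
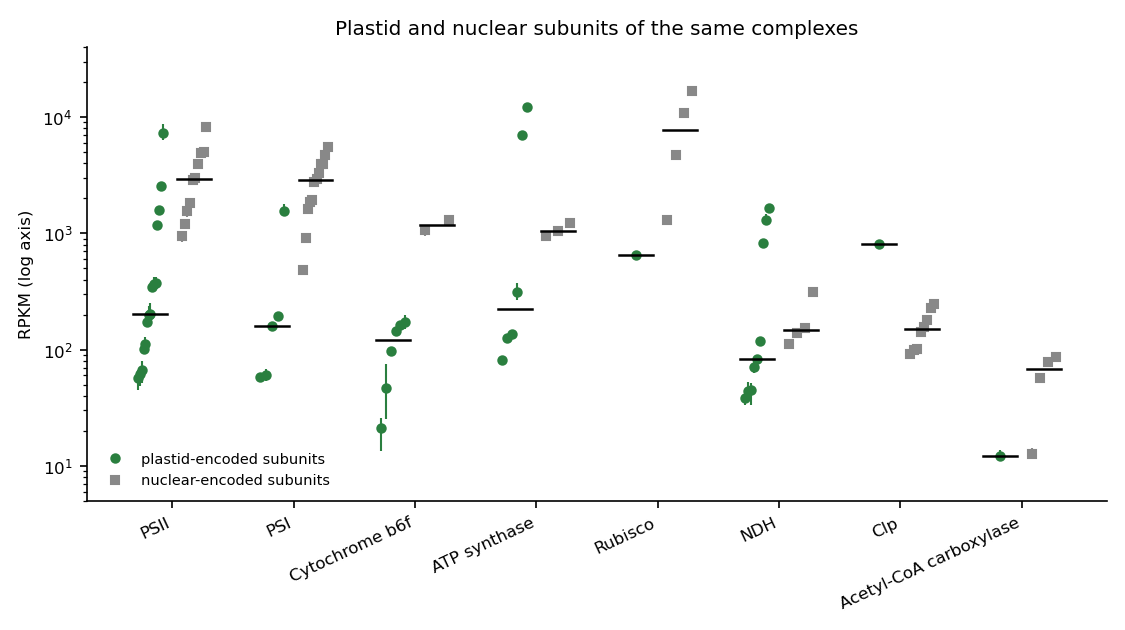
Mean RPKM (log axis) of plastid-encoded subunits, taken by gene symbol (green circles, left), and nuclear-encoded subunits (grey squares, right) of 8 complexes, with lines over the range of the 4 libraries and black bars at the medians. The medians of plastid genes lie below those of nuclear genes in the photosystems, cytochrome b6f and Rubisco, and single plastid genes lie on both sides of them in the ATP synthase and NDH, and above them for Clp.

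The 4 libraries differed by more than counting error for many plastid genes. Of 57 members with at least 400 reads in total, 50 had a coefficient of variation above that of counting alone, and in 39 the variance was over 2 times that of counting. Over the 75 members with a mean of at least 10 RPKM, the median coefficient of variation was 8.52%, against 5.14% for nuclear genes of the same level (within 0.25 on the log2 scale), and 59 of the 75 lay above the nuclear median of their level. These nuclear genes were matched by RPKM and not by reads. Counting error alone had a median of 5.64% over the 75 members, so part of this gap can come from counting. At 400 to 1000 reads the median variance was 2.44 times that of counting for 14 plastid features. It was 1.05 times for 2006 nuclear genes whose transcripts share 1 exon length. At 3000 to 10000 reads it was 3.74 times for 12 plastid features and 2.23 times for 402 nuclear genes. It was 1.86 against 1.36 times at 1000 to 3000 reads, and 13.8 against 10.9 times at 10000 reads or more. At 100 to 400 reads the plastid value was the lower, 0.79 against 0.98 times. Reads of nuclear genes were computed with RefSeq exon lengths, which were not matched to the deposited exon models gene by gene. Some totals were not whole reads, such as 439.79 for AT1G01120 and 368.54 for AT1G01230. The nuclear ratios and read ranges are therefore approximate. The steadiest member was rpl14, with a coefficient of 1.87% at 11470 reads, equal to its counting error, while psbM had 15.2% and ycf1 had 12.0%.

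**Figure D4:**
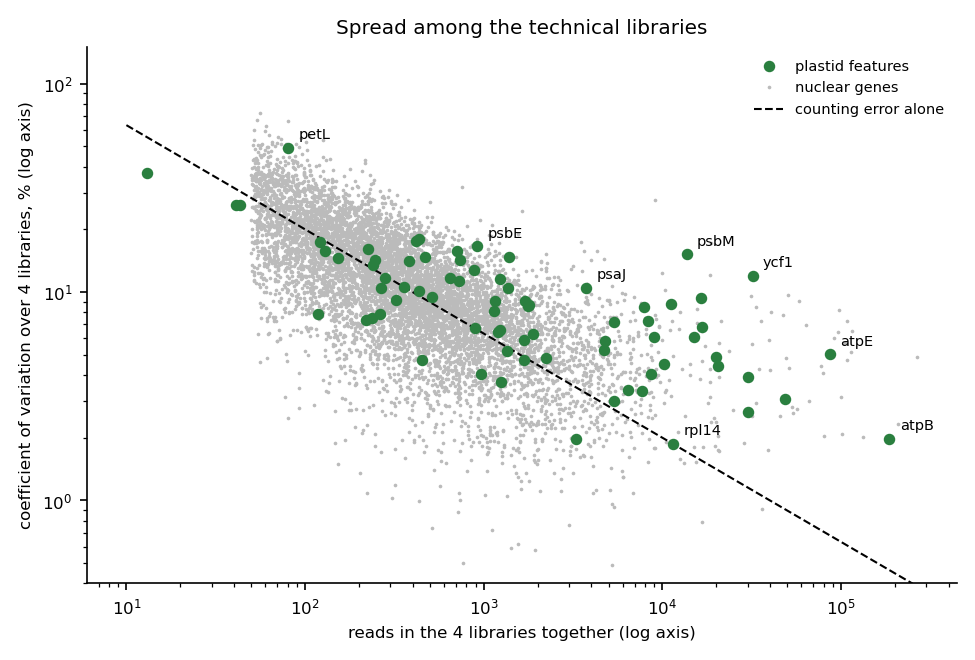
Coefficient of variation over the 4 libraries (%, log axis) against the reads in all 4 together (log axis) for the paired plastid features (green) and nuclear genes with at least 50 reads (grey), with counting error as a dashed line. Plastid features with few reads lie along the line, and most with over 400 reads lie above it, psbM at 15.2% and psbE at 16.6% among them. Reads of nuclear genes are approximate, being computed with RefSeq exon lengths.

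Much of this spread came with replicate 4. It was the highest library for 41 of the 79 features, against 7 to 20 for each other library, and 44 of the 57 members with at least 400 reads exceeded the mean of the other 3 there, by a median of 0.12 on the log2 scale. The same median over 8630 nuclear genes was 0.02. Without replicate 4 the median coefficient of variation was 4.84%. The shift was uneven between genes, from 0.44 for psbE to -0.23 for psbI, and rbcL and psbI had their lowest value in replicate 4. Over the 57 members the shift had a Spearman rho of -0.32 with GC content and -0.15 with length, a description of genes that share the 4 libraries. For replicates 1 to 3 the rho was 0.01, 0.32 and 0.11 with GC content and -0.08, 0.20 and 0.22 with length. A rho of this size was thus not particular to replicate 4. Large shifts in replicate 4 were found both in psbE, at 42.5% GC, and in psbM, at 30.5% GC, and the part of base composition was not tested.

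**Figure D5:**
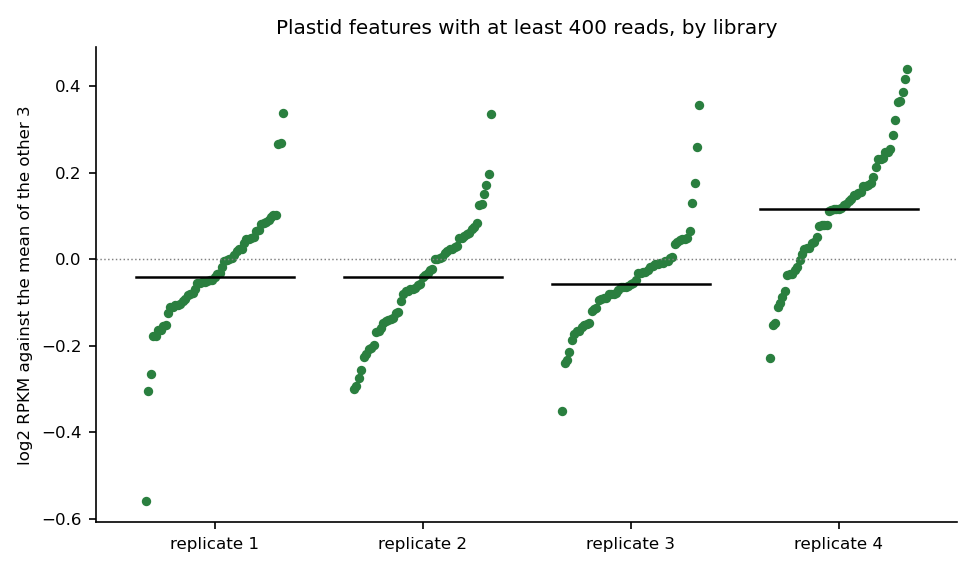
The log2 ratio of each library's RPKM to the mean of the other 3, for the 57 plastid features with at least 400 reads, sorted within each library, with a black bar at the median. The medians are -0.04, -0.04 and -0.06 in replicates 1 to 3 and 0.12 in replicate 4.

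Levels were set beside simple features of the sequences. Over the 76 paired features, log2 RPKM had a Spearman rho of -0.05 with coding length, 0.21 with GC content, 0.02 with the share of A and -0.09 with the longest run of A. When 200 bases downstream were added, the rho with the longest run of A was 0.07. These are descriptions across genes that share libraries and, in clusters, transcripts. The 14 features of loci with an intron had a median of 94.8 RPKM, against 173 RPKM for the 62 without.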

How the data were processed

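RNA from whole Col-0 seedlings was sequenced in 4 libraries labelled technical replicates, made from polyA RNA with an adapted Illumina mRNA protocol, per the labels' protocols. The authors deposited RPKM values to 2 decimals, normalized by exon model kilobases and by mapped reads, per the file headers. The files of the other 38 libraries, in which the deposited values of the plastid features hold the code -1, were used for that count alone. Builds TAIR9 and TAIR10 are named in the submitters' processing notes. The sources used here give no aligner or counter and do not say how strand or multiply matching reads were handled.

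Mapped reads per library were taken as the depth at which values of nuclear genes most often came near whole reads. The nuclear genes were 16954 whose transcripts share 1 exon length in RefSeq, those under 700 bases entering, and not all gave whole reads. The depth was then refined on plastid features. An exon length was accepted where it gave whole reads in all 4 libraries within the rounding of 0.005 RPKM and had a probability of at most 0.005 of doing so by chance. Among accepted lengths, the assignment was kept in which positions rise with identifiers. In simulated data made from the 76 pairs, taken as true, all 4 depths and 76 of 76 loci were recovered. This shows that the procedure returns such pairs from read counts. It cannot show that the pairs themselves are right. Reads were RPKM times length and depth, with the RefSeq exon length for nuclear genes. Sums, medians, log2 ratios and coefficients of variation were computed per library in Python 3.11.15 with pandas 2.3.3 and scipy 1.17.1, and log2 values of medians used a pseudocount of 1. Words of 32 bases were searched on both strands of all 3 genomes of TAIR10.1.

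Genes were named by a rule: the 10 highest, the highest and lowest of each class, both copies in the inverted repeat, the polymerase genes, accD, ycf1, ycf2, clpP and matK, the members of 11 transcription units, and the nuclear partners. Others are named as members of their class, and some that the rule names are not reported here. The members, classes and lists were chosen with earlier results of these data known. Alternatives were other pseudocounts, thresholds, summaries and member filters, and each library left out in turn.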

Additional observations from a re-analysis of the deposited data

Results flagged for a closer look

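Of 79 plastid features, 5 had a library whose gap to its nearest neighbour passed the 95% critical value of Dixon's test, which chance gives in about 1 of 20 groups. In 4 of the 5 that library was replicate 4 and the value was high: 1948 RPKM for rps19, 1793 RPKM for psaJ, 502 RPKM for rpoA and 186 RPKM for rps15. The 5th was rps18, with a low value of 147 RPKM in replicate 2.

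Of 39 summaries and differences between genes examined in the same way, 2 stood apart, both in replicate 4. The plastid share of summed RPKM was 8.65% there, against 7.76% to 7.84% in the other 3 libraries. The difference of medians between plastid and nuclear subunits of cytochrome b6f was -3.16 on the log2(RPKM + 1) scale there, against -3.35 at the lowest. By share of reads the plastid value of replicate 4 did not stand apart by this measure. The part of the library itself in these values was not tested.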

How the results depend on the processing

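Leaving out any 1 library moved each of 79 member levels, and the differences of 26 pairs of members, by less than its SD. For a mean of 4 values this is so by arithmetic, so it does not show that the levels are stable. Adding a pseudocount of 1, chosen after seeing the data, moved the log2 difference of atpE over atpA to 7.19. It moved no other pair by as much as its SD. The plastid share was 3.70% by reads in place of 8.02% by summed RPKM. Leaving out rRNA genes gave 8.02% too, but they were found by RefSeq locus name, which no plastid feature carries. No plastid feature could therefore be removed, and this alternative could not show an effect of plastid rRNA. By summed RPKM the share was 7.81% to 8.11% with 1 library left out.

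The difference between photosynthesis and gene expression (0.53) was -0.52 without members that share sequence, 1.38 as a difference of means, and 0.12 without loci that no feature with reads matches, an alternative added after seeing the data. It was 0.51 to 0.56 with 1 library left out.

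Plastid minus nuclear subunits over the 5 photosynthetic complexes was -3.98 by medians and -1.50 by sums. By sums it was -1.19 for PSII, -1.87 for cytochrome b6f, 2.62 for the ATP synthase, -5.69 for Rubisco, 2.53 for NDH, -0.62 for Clp and -4.16 for acetyl-CoA carboxylase. Without exons under 300 bases it was -1.09 for PSII, -4.0 for PSI, -3.01 for cytochrome b6f and -2.93 for the ATP synthase.

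The plastid median minus the nuclear median (3.31) was 4.89 against all nuclear genes listed, 3.41 with a pseudocount of 0.1, and 3.61 without loci that no feature with reads matches. The count of 78 features at 1 RPKM stayed within 1.5 times under each alternative tried. The median coefficient of variation (8.52%) was 4.84% to 8.37% with 1 library left out, lowest without replicate 4. No paired analysis was possible because the only group with plastid values is that of the 4 technical libraries, and no result comes from a test. Depth limits genes such as petG and rps16, with 43 and 41 reads in all, and lengths of features at 0.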
